A study of Mus musculus with 3 samples.

Results

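The 9 alpha-defensin genes described here are Defa3, Defa5, Defa17, Defa21, Defa22, Defa24, Defa25, Defa26 and Defa-rs7, taken by name from the 23271 genes of the merged Seq-Well count table. Seq-Well is a single-cell RNA method in which cells and barcoded mRNA capture beads are caught together in nanowells. The cells came from 3 cultures of mouse small intestinal organoids, each 1 array (1 library) of cells pooled from several wells of 1 donor at day 6. The donors of the study were C57BL/6 mice of both sexes aged 3 to 6 months, and the donor of these arrays is not singled out further. All cultures started as stem cell-enriched cells in ENR+CV, which is medium with EGF, Noggin and R-spondin 1 (ENR) plus the GSK3 inhibitor CHIR99021 at 3 µM and valproic acid at 1 mM. The ENR+CV library is this precursor population, the ENR library was moved to ENR alone, and the ENR+CD library was moved to ENR with CHIR99021 at 3 µM and the gamma-secretase inhibitor DAPT at 10 µM, which drives Wnt and blocks Notch signaling. Cells with at least 1000 and under 8000 UMIs (unique molecular identifiers, counted once per captured molecule) and at least 400 genes were kept, which left 2545 ENR, 2383 ENR+CD and 985 ENR+CV cells with 5095089, 4538388 and 2942252 UMIs. The median kept cell had 1553, 1543 and 2499 UMIs. The per-library tables that are attached to the samples labelled ENR+CD and ENR+CV hold each other's cells, so the library names of the merged table were followed. The numbers of cells that the study states for ENR+CV and ENR+CD also go with the names in the merged table. Between the kept cells of ENR and ENR+CD 1 barcode was shared, and between the other pairs 0. There is 1 library per condition, so no test between conditions was possible, and every interval covers counting error only.

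Alpha-defensins are small cationic peptides that Paneth cells pack in granules and release at the base of small intestinal crypts, where they kill bacteria and shape the microbiota. They are made as prepropeptides, and in mice the matrix metalloproteinase MMP7 cuts off the propiece to free the active peptide, which is held together by disulfide bonds between 6 cysteines. The mouse genes are many and very alike, since the family grew by repeated duplication on chromosome 8. In the intestinal epithelium Wnt signaling favours the Paneth cell program, and Notch signaling holds cells back from the secretory fates.

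In GENCODE vM21 (build GRCm38, the build that mm10 names) all 9 members lie on the plus strand of chromosome 8 within 709.927 kb, from 21025545 to 21735471, in the order Defa21, Defa25, Defa22, Defa-rs7, Defa3, Defa5, Defa26, Defa17 and Defa24. Defa-rs7 is listed there as Defa31, which RefSeq gives as the newer name of the gene. Each member has 2 exons, and 8 of 9 have 93 codons against 92 for Defa25. The end of the coding sequence, in the second exon, holds the 6 cysteine codons of the mature peptide. The last 30 codons before the stop codon are shown for 7 members to let the reader see how little sets the genes apart. They are written 5′ to 3′ as the plus strand reads, and capitals mark the bases that differ from Defa24, counted without gaps.
Defa24, chr8:21735285-21735374: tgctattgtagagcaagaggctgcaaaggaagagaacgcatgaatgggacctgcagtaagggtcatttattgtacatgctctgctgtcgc
Defa17, chr8:21656549-21656638: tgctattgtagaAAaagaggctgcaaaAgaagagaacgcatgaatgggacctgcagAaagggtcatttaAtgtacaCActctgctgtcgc
Defa3, chr8:21288191-21288280: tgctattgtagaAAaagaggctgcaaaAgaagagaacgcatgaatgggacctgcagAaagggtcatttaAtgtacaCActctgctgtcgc
Defa26, chr8:21618790-21618879: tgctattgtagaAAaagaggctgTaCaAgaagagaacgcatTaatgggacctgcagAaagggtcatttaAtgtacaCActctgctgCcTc
Defa5, chr8:21298189-21298278: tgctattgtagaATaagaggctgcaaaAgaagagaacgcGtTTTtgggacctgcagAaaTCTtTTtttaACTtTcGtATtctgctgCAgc
Defa21, chr8:21026331-21026420: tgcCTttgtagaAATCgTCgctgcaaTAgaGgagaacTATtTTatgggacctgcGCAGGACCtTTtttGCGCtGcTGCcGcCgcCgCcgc
Defa22, chr8:21163063-21163152: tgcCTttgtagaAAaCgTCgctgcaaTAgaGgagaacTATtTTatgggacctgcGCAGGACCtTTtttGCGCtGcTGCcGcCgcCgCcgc
Defa17 and Defa3 have the same 90 bases, 7 of which differ from Defa24. Defa-rs7 and Defa25, not printed, differ from Defa24 at 6 and 8 bases. Defa26 differs at 12 and Defa5 at 22. Defa21 and Defa22 form a group of their own, with 38 and 37 differences from Defa24 but 1 difference between them.

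How far the counts can tell these genes apart was read from 2 measures, the uniqueness of the transcripts and the reads behind each UMI. Read 2 of the libraries has 50 bases, so each transcript was divided into overlapping windows of 50 bases and searched in the transcripts of all other vM21 genes. Of the windows of Defa24, 71.9% were in no other gene, and of those of Defa26 59.8%. The share was 27.1% for Defa21 and 25.1% for Defa22, which share 269 windows with each other, and 25.2% for Defa25. It was 8.05% for Defa17 and 7.76% for Defa3, which share 320 windows with each other. For Defa5 it was 0.306% (1 of 327 windows), and for Defa-rs7 0, since all of its 328 windows are also in Defa23, a further alpha-defensin of the count table. Reads per UMI followed a like order. In ENR+CD, Defa26 had 5.23 reads per UMI, Defa24 4.17, Defa21 3.24, Defa22 3.19, Defa17 2.72, Defa3 1.39, Defa-rs7 1.15, Defa5 1.08 and Defa25 1.05. Over all genes of that library the value was 18.3, and of the 6038 genes with at least 100 UMIs 3.76% had fewer reads per UMI than Defa24. In ENR the members reached at most 5.53 (Defa24) against 15.3 over all genes, and each of the 60 UMIs of Defa5 was seen in 1 read. Across the 9 members, Spearman's rho between the share of unique windows and the reads per UMI was 0.78 in ENR and 0.72 in ENR+CD, given as a description, since all points come from the same reads. Values of Defa5, Defa25, Defa-rs7 and Defa3 thus rest on UMIs seen in few reads, and their levels are uncertain where reads of a near-identical gene could be split among them. The split of reads between Defa21 and Defa22, or between Defa17 and Defa3, is uncertain in the same way.

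**Figure D1:**
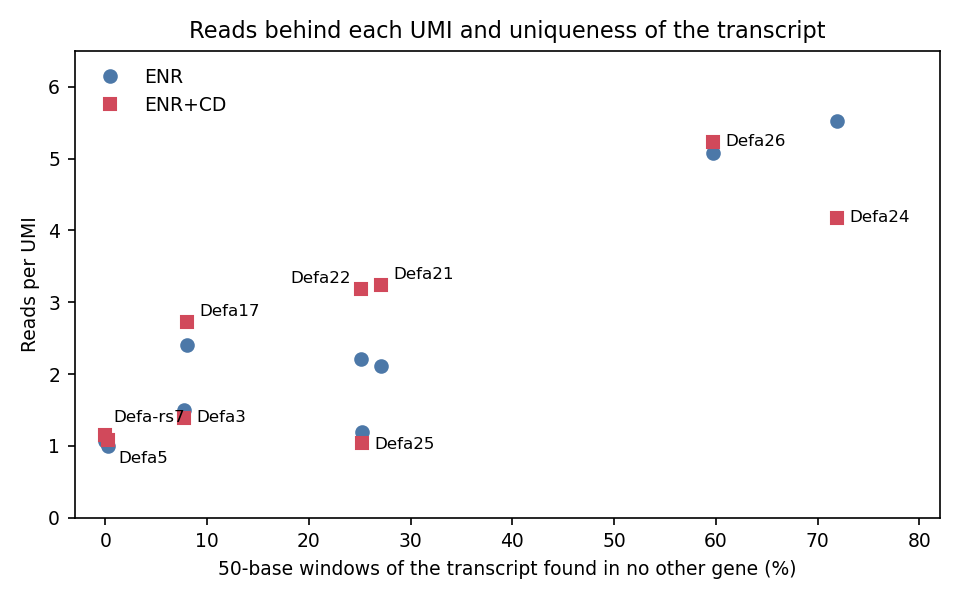
Each point is 1 member in the ENR (circles) or ENR+CD (squares) library, with the share of its 50-base windows found in no other gene on the x axis and its reads per UMI on the y axis. Defa24 and Defa26 lie at the upper right with over 4 reads per UMI, and Defa5 and Defa-rs7 at the lower left near 1.

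All 9 members stood higher in ENR+CD than in ENR. Summed over the members, the level was 28612 CPM in ENR, 101696 CPM for ENR+CD and 3649 CPM for ENR+CV, where CPM is the usual scaling of counts, here UMIs, to a common library total. These were 2.86%, 10.2% and 0.365% of all UMIs. A call needed a CPM ratio of 2 or more between libraries, Poisson 95% intervals that do not touch, and 20 or more UMIs over both. By this rule 9 of 9 members were higher in ENR+CD than in ENR, where 10.8% of 12197 genes were called higher. In ENR+CV 8 of 9 were lower than in ENR (5.8% of 11962 genes) and 9 of 9 lower than in ENR+CD (7.1% of 12099 genes). The median log2 ratio of the members was 3.51 in ENR+CD against ENR, where the median of all genes was -0.01. It was -3.10 in ENR+CV against ENR and -5.32 in ENR+CV against ENR+CD, where the medians of all genes were 0.35 and 0.36. Summed levels cannot tell fewer cells that make a transcript from less transcript per cell. No length scaling was applied, since a molecule gives 1 UMI whatever its length, and levels of different members are compared as UMI levels only.

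**Figure D2:**
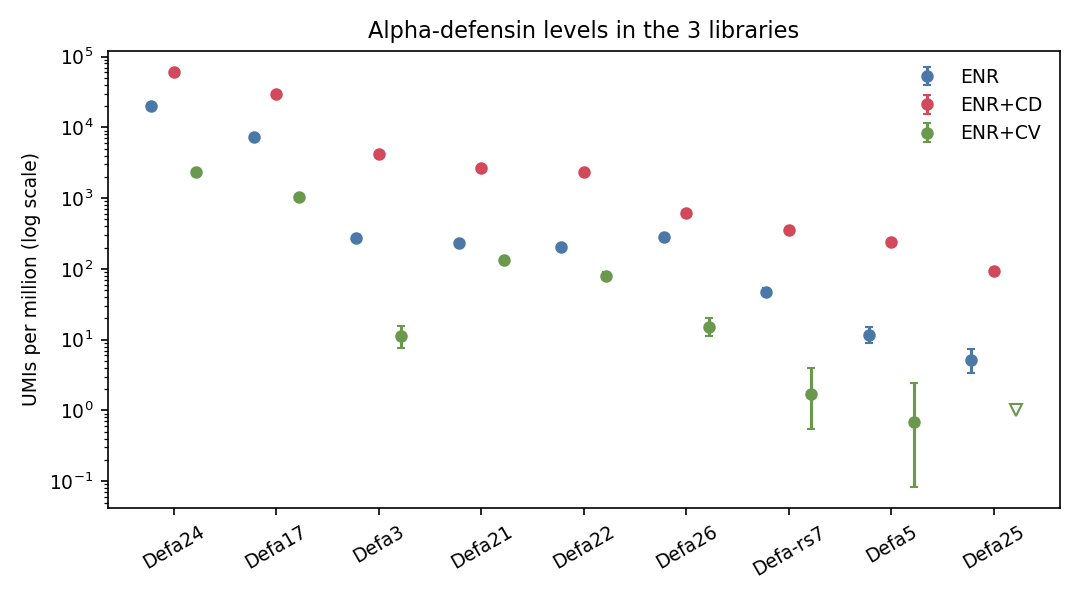
Each point is the level of 1 member in 1 library, in CPM on a log axis, with its exact Poisson 95% interval where that is wider than the point; the open triangle marks the level that 3 UMIs would give, for Defa25 with 0 UMIs in ENR+CV. Every member is highest in ENR+CD and lowest in ENR+CV, with the gap between ENR and ENR+CV smallest for Defa21.

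Defa24 and Defa17 were the most abundant members in all 3 libraries. Defa24 was measured at 20228 CPM in ENR (95% interval 20105 to 20352) and 61299 in ENR+CD (61072 to 61528), against 2356 in ENR+CV (2301 to 2412). The ENR+CD level was thus 3.03-fold (3.01 to 3.05) that of ENR, and the ENR+CV level lay 8.58-fold below ENR. Counted by reads in place of UMIs, the ENR+CD to ENR ratio of Defa24 was 1.91, under the 2-fold limit. Defa17 stood at 7328 CPM in ENR and 29846 in ENR+CD, against 1049 in ENR+CV. Its ratio of ENR+CD to ENR was 4.07 (4.03 to 4.12), and ENR+CV lay 6.98-fold below ENR. The ENR+CV levels were carried by few cells. Without the 14 of 985 ENR+CV cells with at least 100 members' UMIs, Defa17 lay 85.3-fold (75.3 to 97.0) and Defa24 39.3-fold (37.3 to 41.4) below ENR. This exclusion was made after the values were seen and in ENR+CV alone, while the 384 ENR cells above the same limit stayed in. The values thus show how much few cells carry and are not estimates of the gap between the libraries.

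The members with the largest ratios had low levels in ENR. Defa3, which encodes the same peptide end as Defa17, was at 277 CPM in ENR and 4265 in ENR+CD, against 11.2 in ENR+CV, a ratio of 15.4 (14.6 to 16.3) between ENR+CD and ENR. Defa5 was at 11.8, 239 and 0.680 CPM, from 60, 1084 and 2 UMIs, and had the largest ratio of the 9, 20.3 (15.6 to 26.8). Defa25 rested on 26 UMIs in ENR and 425 in ENR+CD, a ratio of 18.4 (12.3 to 28.4). Defa25 had 0 UMIs in ENR+CV, and with 3 UMIs set for that library its level lay at least 91.8-fold below ENR+CD. Defa-rs7 was at 47.5 CPM in ENR and 355 in ENR+CD, against 1.70 in ENR+CV, and its ratio of ENR+CD to ENR was 7.47 (6.53 to 8.59). Defa26 had the smallest ratio of ENR+CD to ENR. It was at 281 CPM in ENR, where it lay at the level of Defa3, and at 613 CPM in ENR+CD, a ratio of 2.18 (2.04 to 2.33) that fell to 1.88 by reads. In ENR+CV it was at 15.3 CPM.

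Defa21 and Defa22, the pair that stands apart in sequence, moved alike from ENR to ENR+CD. Defa21 was at 231 CPM in ENR and 2625 in ENR+CD, a ratio of 11.4 (10.7 to 12.1). Defa22 was at 203 and 2361 CPM, a ratio of 11.6 (10.9 to 12.4), so the intervals of the ratios overlap. In ENR+CV they were the members closest to the ENR level, with Defa21 at 134 CPM and Defa22 at 79.9. Defa21 was the member without a call, 1.72-fold (1.53 to 1.93) lower in ENR+CV than in ENR. A single ENR+CV cell of 5947 UMIs held 353 of the 395 Defa21 UMIs and 165 of the 235 Defa22 UMIs of that library. Without that cell, an exclusion made after its values were seen, Defa21 was at 14.3 CPM and 16.1-fold (11.9 to 22.5) lower than in ENR, and Defa22 8.50-fold lower. The cell was picked for its Defa21 and left out of ENR+CV alone, with no cell of ENR left out. These values thus show how much it carried and are not estimates of the gap between the libraries. By reads with all cells kept, Defa21 was 1.31-fold higher in ENR+CV than in ENR.

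For 3 members, Defa21, Defa22 and Defa-rs7, the sequence before the RefSeq start (GRCm38.p6) was at hand, and Defa21 and Defa-rs7 are shown as the distinct sequences among them, from genes at 2625 and 355 CPM in ENR+CD. Capitals mark the letters ATCAAAG, which hold the core of a site for TCF factors of the Wnt pathway. They also mark a TATA box of the letters TATAAA. Both strands were searched, and the motifs do not overlap.
Defa21, chr8:21025295-21025544, plus strand: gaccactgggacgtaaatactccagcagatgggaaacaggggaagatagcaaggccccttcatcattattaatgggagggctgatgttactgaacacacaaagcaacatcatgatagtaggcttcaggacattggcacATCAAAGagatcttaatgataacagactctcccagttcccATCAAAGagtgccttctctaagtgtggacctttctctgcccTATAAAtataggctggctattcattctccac
Defa-rs7, chr8:21191323-21191572, plus strand: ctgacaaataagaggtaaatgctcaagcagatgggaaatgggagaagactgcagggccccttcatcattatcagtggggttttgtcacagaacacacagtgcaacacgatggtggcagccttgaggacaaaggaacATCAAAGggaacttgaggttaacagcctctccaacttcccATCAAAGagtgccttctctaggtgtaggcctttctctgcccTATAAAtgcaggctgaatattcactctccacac
The 250 bases before Defa22 (chr8:21162027-21162276) are identical to those of Defa21. Each of the 3 holds ATCAAAG at 2 places and TATAAA at 1. Of 32851 promoters of the same length, 3.21% held ATCAAAG, 0.0822% held it more than once, and 12.4% held TATAAA. These matches are a description of the letters and no measure of binding.

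The mix of members, that is each member's percent of the summed UMIs of the 9, differed between the libraries. Defa24 made up 70.7% of the members' UMIs in ENR (Clopper-Pearson 95% interval 70.5 to 70.9) and 60.3% in ENR+CD (60.1 to 60.4), against 64.6% in ENR+CV (63.7 to 65.5). Defa17 made up 25.6%, 29.3% and 28.8%. Defa3 took 0.969% in ENR and 4.19% in ENR+CD, against 0.307% in ENR+CV. The ENR+CV value rests on 33 UMIs in 7 cells, with 17 of them in 1 cell. That value is not compared with the others. The intervals of all members treat UMIs as independent and come from 1 library per condition, so they cannot show a difference between conditions. For each 100 UMIs of Defa17, those of Defa3 were 3.78 (3.58 to 3.99) in ENR and 14.3 (14.1 to 14.5) in ENR+CD, against 1.07 in ENR+CV from 33 UMIs of Defa3. By reads, Defa3 made up 0.315% of the members in ENR and 1.63% in ENR+CD, and Defa17 13.3% and 22.4%. The split of reads between Defa17 and Defa3 is uncertain, which the intervals do not cover. Defa21 made up 0.807%, 2.58% and 3.68%, and Defa22 0.709%, 2.32% and 2.19%. The ENR+CV values of this pair rest on the cell rich in Defa21, and without it Defa21 made up 0.494% and Defa22 0.824% there, so that Defa21 went from its highest to its lowest share of the 3 libraries. Defa26 went the other way, from 0.982% in ENR to 0.603% in ENR+CD. Defa-rs7, Defa5 and Defa25 each stayed under 0.35% in every library. Counted by reads, Defa24 made up 84.5%, 70.5% and 79.2%, so the order of the libraries for Defa24 was the same and its level higher.

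**Figure D3:**
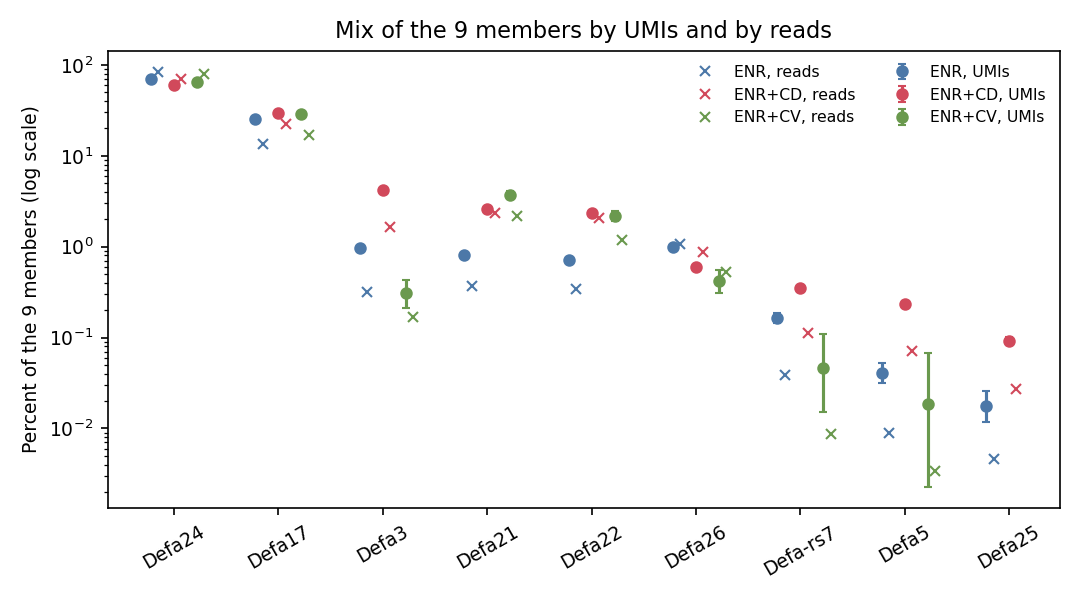
Each filled point is the percent of the members' summed UMIs that fell on 1 member in 1 library, on a log axis, with its Clopper-Pearson 95% interval where visible, and each cross is the same percent of the members' reads. Defa3, Defa21 and Defa22 lie higher in ENR+CD than in ENR by both measures, and Defa24 and Defa26 lower.

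Between groups of cells within ENR and within ENR+CD, the percent of Defa24 moved far less than the level of the members. Cells were clustered within each library by genes other than alpha-defensins, so that the members took no part in forming the groups, although genes that vary with them, such as Lyz1 and Itln1, were not left out. A cluster was named only where at least 3 markers of 1 class were among its 10 leading genes and its first genes did not point to another class. In ENR the members took from 0.309% to 13.0% of the UMIs of the 9 clusters, and Defa24 from 70.2% to 75.5% of the members' UMIs. Defa17 made up 21.5% to 26.2%, lowest in a cluster of 222 cells at 0.309%, and Defa21 ranged from 0.464% to 1.01% and Defa22 from 0.415% to 0.979%. The Paneth-like cluster of ENR (335 cells, with Lyz2, Ccl6 and Mmp7 among its leading genes) had the 13.0%, with Defa24 at 91186 CPM, Defa17 at 33844 and Defa3 at 1260. The enterocyte-like cluster (284 cells, led by Spink3, Apoc3, Rbp2 and Leap2) had 1.11%, with Defa24 at 7981 CPM, Defa17 at 2714 and Defa3 at 112. Defa24 made up 70.2% of the members in the Paneth-like cells and 72.1% in the enterocyte-like cells, and Defa3 0.971% and 1.01%. Barcodes under 1000 UMIs of ENR, which can carry RNA that was free in the wells, had 71.7% and 0.890%. How far free RNA set the shares of the clusters was not tested, so clusters are not read as separate observations of the mix.

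In ENR+CD the members took from 1.49% to 22.9% of the UMIs of the 10 clusters. The Paneth-like cluster (316 cells, led by Pnliprp2, Lyz2, Guca2b and Ang6) had the 22.9%, with Defa24 at 138343 CPM, Defa17 at 68498, Defa3 at 9741, Defa21 at 5152 and Defa22 at 4827. An unnamed cluster of 126 cells led by Nucb2, Ang2, Ang6 and Muc2 followed with 19.6%. Defa24 made up 58.7% to 64.7% of the members over the 10 clusters and Defa3 2.96% to 4.31%, values that do not reach those of any ENR cluster for either gene. Barcodes under 1000 UMIs of ENR+CD had 60.9% and 3.97%, so here too the clusters are not separate observations of the mix. The cluster with the mix farthest from the rest was 1 of 95 cells led by Syp, Runx1t1 and Rab3c, genes of neuronal and enteroendocrine cells. There Defa17 made up 21.3%, where the other clusters had 26.7% to 31.7%, and Defa21 5.68% (5.17 to 6.22), the highest share of Defa21 in any ENR+CD cluster. That share rests on 437 Defa21 UMIs found in 41.1% of the 95 cells. Its interval treats UMIs as independent, and the share without single cells was not taken.

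In ENR+CV the members were gathered in few cells. An unnamed cluster of 33 cells, led by Neurod1, Lyz2, Hmgn3 and Nefl, had 10.5% of its UMIs on members and 8930 of the 10735 members' UMIs of the library. Its mix was 60.9% Defa24, 31.5% Defa17 and 4.30% Defa21. The cell rich in Defa21 is in this cluster and held 353 of its 384 Defa21 UMIs, and the other 32 cells had 64.0% Defa24, 34.0% Defa17 and 0.463% Defa21. In the other 7 clusters members took 0.0400% to 0.175% of the UMIs, of which Defa24 made up 79.5% to 87.9%. Reads per UMI of the members were 5.89 in the cluster of 33 cells, 5.49 in 1 other cluster and from 1.36 to 2.99 in the remaining 6. Without the 14 ENR+CV cells that held at least 100 members' UMIs, the members took 0.0622% of the library's UMIs, and Defa24 made up 82.9% (81.0 to 84.6) of them.

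**Figure D4:**
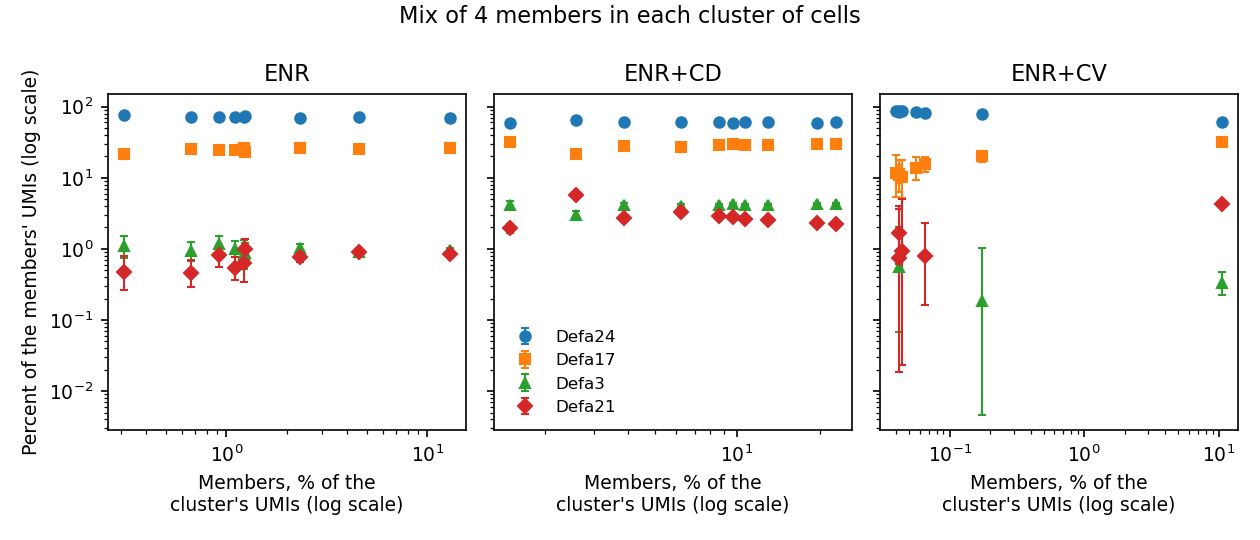
Each point is the percent of the members' UMIs that fell on Defa24, Defa17, Defa3 or Defa21 in 1 cluster of cells, with its Clopper-Pearson 95% interval, against the members' percent of all UMIs of that cluster, both on log axes; points at 0 are left out. Defa24 lies between 70.2% and 75.5% in ENR and between 58.7% and 64.7% in ENR+CD, Defa21 reaches 5.68% in the ENR+CD cluster at 2.59%, and in ENR+CV Defa17 is highest in the cluster at the far right, where the Defa21 point (4.30%) rests on 1 cell and is at 0.463% without it.

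Barcodes under 1000 UMIs, below the limit for a cell, can carry RNA that was free in the wells, and in ENR and ENR+CD they held the members in nearly the proportions of the cells. In ENR they had Defa24 at 71.7% of the members and Defa3 at 0.890%, in ENR+CD at 60.9% and 3.97%. The level of Defa24 in these barcodes was 19174 CPM in ENR and 50409 in ENR+CD, beside 20228 and 61299 in the cells. In ENR+CV it was 1632 CPM, with Defa24 at 70.0% and Defa17 at 27.6% of the members. Shares of cells with a UMI have to be read against this. With each cell thinned to 1000 UMIs, Defa24 was found in 85.5% of ENR, 98.2% of ENR+CD and 32.9% of ENR+CV cells, and without thinning in 93.2%, 99.5% and 60.8%. In the enterocyte-like cells of ENR, a type not known to make alpha-defensins (median 1542 UMIs, against 1595 in the Paneth-like cells), the thinned share was 83.5%. The share of all ENR cells is therefore not read as a share of cells that express Defa24. Defa17 was found in 67.7%, 94.6% and 8.22% of thinned cells, with 60.9% in the enterocyte-like cells of ENR. Defa3 was found in 17.9%, 81.6% and 0.203%, with 11.3% in the enterocyte-like and 54.6% in the Paneth-like cells of ENR. For Defa26 the shares were 18.9%, 38.5% and 1.12%, with 10.9% in the enterocyte-like and 53.4% in the Paneth-like cells. Defa21 and Defa22 were found in 12.6% and 11.1% of ENR cells and in 70.1% and 65.6% of ENR+CD cells, beside 5.28% and 5.99% of the enterocyte-like cells. The enterocyte-like cells give a background for ENR alone. In ENR+CD the barcodes under 1000 UMIs held Defa3 at 3288 CPM and Defa21 at 2134, against 238 and 216 in those of ENR, so the shares of ENR+CD cells are not read as shares of cells that express a member. Defa-rs7, Defa5 and Defa25 were found in 4.28%, 1.18% and 0.472% of ENR cells and in 26.0%, 19.2% and 8.64% of ENR+CD cells, beside 2.82%, 0% and 0% of the 284 enterocyte-like cells. For Defa25, 0 of 985 ENR+CV cells had a UMI without thinning, which allows a share of cells with a UMI, not of cells that express it, of up to 0.305% by the limit of 3 counts.

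Relative to its mean, the members' percent of a cell's UMIs was most spread over cells in ENR+CV and least in ENR+CD, while its SD was largest in ENR+CD. The members' percent of a cell's UMIs had a mean of 2.99% in ENR (SD over cells 5.26), with a median of 0.888% and a highest value of 43.2%. In ENR+CD the mean was 10.3% (SD 7.63), the median 9.83% and the highest 42.8%, so the top cells of both libraries reached about the same share. In ENR+CV the mean was 0.360% (SD 2.73), the median 0.0379% and the highest 37.6%. The tenth of the cells with most members' UMIs held 60.0% of them in ENR and 35.0% in ENR+CD, against 91.5% in ENR+CV. More than 5% of the UMIs fell on members in 17.5% of ENR, 71.9% of ENR+CD and 1.32% of ENR+CV cells, and more than 20% in 2.32%, 10.5% and 0.812%. For Defa24 the coefficient of variation of CPM over cells was 1.77 in ENR and 0.746 in ENR+CD, against 6.95 in ENR+CV, and for Defa17 1.84, 0.808 and 9.05. For Defa3 it fell from 2.53 in ENR to 0.894 in ENR+CD. For Defa21 and Defa22 it was 1.29 and 1.49 in ENR+CD, above Defa3, which stood at the higher level of 4265 CPM. The low-level members Defa5 and Defa25 had 2.05 and 2.74 in ENR+CD, with at most 22 and 4 UMIs in a cell.

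In ENR and ENR+CD, UMIs of different members were found in the same cells. Barcodes under 1000 UMIs, which can carry free RNA, held Defa24 at 50409 CPM, Defa17 at 24189 and Defa3 at 3288 in ENR+CD. In ENR they held Defa24 at 19174 CPM and Defa17 at 6648. The numbers below are therefore not read as numbers of members that a cell expresses. At 1000 UMIs per cell the mean number of members found was 2.20 in ENR (SD over cells 1.49) and 5.02 in ENR+CD (1.86), against 0.444 in ENR+CV (0.689). At least 6 of the 9 were found in 3.77% of ENR, 45.9% of ENR+CD and 0.305% of ENR+CV cells, and none in 10.9%, 0.671% and 62.6%. All 9 were found in 0.629% of ENR+CD cells and in 0 ENR cells. The number of cells with both members of a pair was set against the product of the members' shares, a description of co-occurrence that differences in level between cells alone would raise. It was above that product in all 36 pairs in ENR+CD (ratios 1.01 to 1.54, median 1.19) and in all 27 pairs in ENR with at least 5 such cells by the product (1.12 to 3.73, median 1.48). Of the 456 ENR cells with Defa3, 97.4% also had Defa17 and 99.3% Defa24, and in ENR+CD 99.7% and 99.9% of 1944. Of all thinned cells, Defa17 was in 67.7% in ENR and 94.6% in ENR+CD, and Defa24 in 85.5% and 98.2%. Cells with Defa3 and Defa17 were thus 1.44 times the product in ENR and 1.05 times in ENR+CD. For Defa3 and Defa24 the values were 1.16 and 1.02. Defa21 and Defa22 were in the same cell in 117 ENR cells, where the product gives 35.5, and in 1332 ENR+CD cells, where it gives 1096. As Defa21 and Defa22, and Defa3 and Defa17, share windows, reads of 1 gene could count for the other in these pairs.

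**Figure D5:**
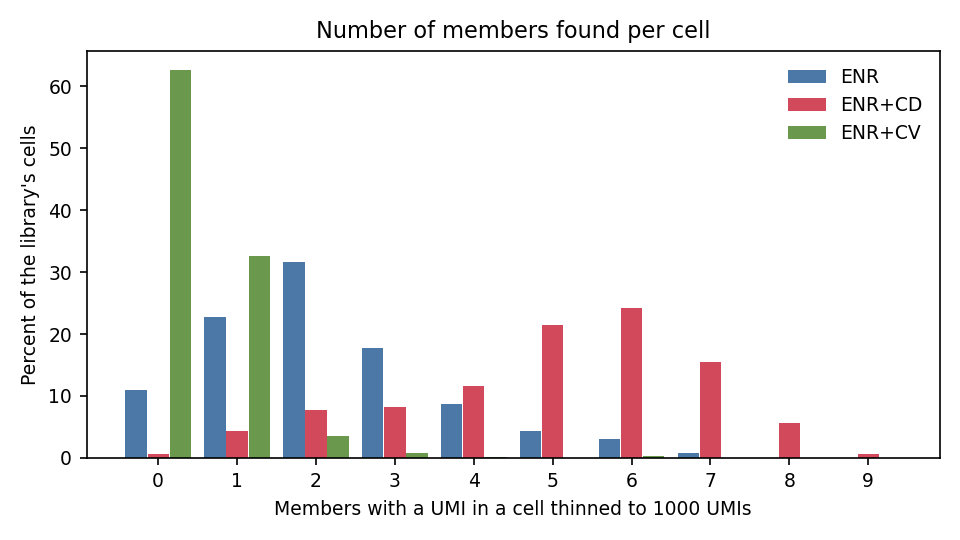
Bars give the percent of the kept cells of each library in which 0 to 9 members had at least 1 UMI after each cell was thinned to 1000 UMIs. Most ENR+CV cells had 0 or 1 member, ENR cells most often 2, and ENR+CD cells most often 6.

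The mix of single cells was read from cells with at least 100 members' UMIs, which were 384 in ENR and 1528 in ENR+CD, against 14 in ENR+CV. Defa24 was the highest member in 98.7% of the ENR+CD cells and in all 14 ENR+CV cells. Defa17 was the highest in 1.04% of the ENR and 1.11% of the ENR+CD cells, which leaves 3 ENR+CD cells. In ENR+CD cells the percent of Defa24 had an SD of 6.93 percentage points around a mean of 60.5%, where counting alone would give 3.44. For Defa17 the SD was 6.20 against 3.20 from counting. For Defa3 it was 1.64 against 1.41, and for Defa26, at a mean of 0.587%, 0.591 against 0.547. For scarce members an SD near that of counting cannot show that they kept to the library's mix in each cell. The SDs of Defa21 and Defa22 were 2.96 and 2.66 against 1.11 and 1.06 from counting, and their ranges over cells went up to 56.9% and 42.5%. In those cells the percents of Defa21 and Defa22 varied together (r = 0.68 over 1528 cells, 0.44 over 384 ENR cells), while Defa3 and Defa21 had r = -0.08 in ENR+CD. These correlations share library, depth and the common total. The 3 ENR+CD cells described next had high percents of both Defa21 and Defa22 and weigh on the r and SDs of this pair. Values without those cells were not taken. The 3 ENR+CD cells with another leading member were chosen for these values. The first had 99 UMIs of Defa21 and 67 of Defa22 but 2 of Defa24 and 5 of Defa17 among 4125 UMIs. The second had 98 and 88 against 11 and 4, and the third 32 and 55 against 51 and 53. The ENR+CV cell rich in Defa21 had 353 UMIs of Defa21 and 165 of Defa22 beside 1157 of Defa24 and 540 of Defa17.

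The genes most like the members across ENR+CD cells were mostly other alpha-defensins and granule genes. The measure was Pearson's r of log(1 + UMIs per 10000) over 2383 cells, among 1247 genes of at least 500 UMIs, and all genes share the cells' depth. Defa24 went with Defa17 (r = 0.92), Gm15284 (0.89) and Defa3 (0.86). Defa17 went with Defa24, Defa3 (0.86) and Gm15284 (0.85), and Defa3 with Defa17, Defa24 and Gm15284 (0.81). Defa21 went with Gm15284 (0.69) and Defa24 (0.65), and Defa22 with Defa21 (0.65) and Gm15284 (0.63). Defa26 went with Defa24 (0.50) and Defa3 (0.50), and Defa-rs7 with Gm15284 (0.46), Defa24 (0.43) and Defa3 (0.43). Defa5 went with Gm15315 (0.42) and Defa22 (0.37), and Defa25 with Defa3 (0.24) and Defa24 (0.24). Gm15315 is named Defa34 in RefSeq and shares 257 windows with Defa5, 78.6% of the Defa5 transcript. For the sum of the members, the closest genes outside the family were Lyz1, which encodes lysozyme (r = 0.80 in ENR+CD and 0.66 in ENR), Itln1, an intelectin lectin (0.79 and 0.73), Ang4, an antimicrobial ribonuclease (0.79 and 0.55), Spink4, a protease inhibitor of secretory cells (0.75 and 0.75), and Tff3, a trefoil peptide (0.75 and 0.65).

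Most of the other alpha-defensins of the table stood higher in ENR+CD as well. Of 17 further genes of the family 14 could be called, of which 12 had a call of higher and 0 of lower for ENR+CD against ENR, with a median log2 ratio of 2.14, and all 14 were lower in ENR+CV than in either. Over all genes, 10.8% were called higher in ENR+CD than in ENR. In ENR+CV 5.8% were called lower than in ENR and 7.1% lower than in ENR+CD. Gm15284, named Defa30 in RefSeq, was the largest of them at 6085 CPM in ENR and 38595 in ENR+CD, against 447 in ENR+CV. Gm14851 stood at 857, 3835 and 7.14 CPM. The 9 members held 74.6%, 66.0% and 88.2% of all alpha-defensin UMIs in ENR, ENR+CD and ENR+CV. AY761184 and Gm15299, both named after their values were seen, were the family genes without a call, with ENR+CD to ENR ratios of 1.13 (1.09 to 1.18) and 1.12 (1.05 to 1.19). Gm15284 shares 98 windows of 50 bases with Defa24.

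Among the genes that go with alpha-defensins in the Paneth cell, 10 of 15 granule genes had a call of higher and 1 of lower for ENR+CD against ENR, with a median log2 ratio of 2.20. Over all genes of this comparison, 1313 of 12197 (10.8%) were called higher and 1140 lower. Itln1 was at 2557 CPM in ENR and 16100 in ENR+CD, against 910 in ENR+CV, Lyz1 at 2190, 13989 and 885, and Spink4 at 4929, 4539 and 672. Of the genes for processing of defensins and granule proteins, 3 of 7 were higher and 1 lower. Mmp7, the convertase of mouse pro-alpha-defensins, was at 363, 3875 and 121 CPM, a ratio of 10.7 (10.2 to 11.2) between ENR+CD and ENR. Tmprss2, a membrane serine protease, was at 110, 147 and 106 CPM, and Pcsk1, a prohormone convertase of enteroendocrine cells, at 59.3, 185 and 53.0. Of the genes of secretory fate 4 of 14 were higher and 1 lower. Cd24a, a surface protein used to sort Paneth cells, was at 480, 1014 and 439 CPM, Nupr1 at 110, 449 and 59.1, and the transcription factor Sox9 at 153, 227 and 217. Of the genes of the secretory pathway at large 2 of 19 were higher and 1 lower, so higher calls were near their share over all genes. Hsp90b1 was at 829, 1008 and 1213 CPM, Hspa5 at 654, 929 and 1043, and Sec61b at 457, 725 and 719.

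Markers of other cell types also moved between the libraries. Their counts of calls stand beside 1313 higher and 1140 lower of all 12197 genes in ENR+CD against ENR. The 20 enteroendocrine genes summed to 5426 CPM in ENR and 9613 in ENR+CD, against 251 in ENR+CV, with 11 called higher and 3 lower for ENR+CD against ENR, and Gip, Sst and Gast had 0 UMIs in ENR+CV. Chgb, a granin of endocrine granules, was at 1344, 3158 and 81.2 CPM, Reg4 at 1182, 997 and 60.8, and Cck at 605, 1001 and 0.680. The 10 goblet genes summed to 3977, 8488 and 662 CPM, with 3 higher and 0 lower in ENR+CD, and Zg16 and Ramp1 at 0 in ENR+CV. Tff3 was at 2091, 5450 and 399 CPM, Agr2 at 682, 1138 and 52.0, and Guca2a at 497, 1106 and 51.7. The 14 enterocyte genes summed to 4377, 857 and 1764 CPM, with 1 higher and 11 lower in ENR+CD, and none at 0. The fatty acid binding gene Fabp2 was at 1069, 85.9 and 250.1 CPM, and Fabp1 at 774, 22.7 and 875. Their part in the levels of the members was not tested. Of 8 non-epithelial markers 1, Vim, had enough UMIs for a call, and the list summed to 36.3, 67.9 and 251 CPM, with Cdh5 and Cd3e at 0 in all 3 libraries.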

How the data were processed

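Each of 3 organoid cultures gave 1 Seq-Well library. The deposited tables hold raw counts. The authors aligned 50-base reads to mm10 through a Drop-seq pipeline, and collapsed them on a 12-base cell barcode and an 8-base UMI. The submitters' processing notes name bcl2fastq, STAR and Seurat. For the versions, the annotation and the treatment of reads that map to several genes, the sources used here give nothing. Levels came from the merged UMI count table, and reads per UMI and barcodes under 1000 UMIs from the deposited per-library UMI and read count tables.

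The members and gene lists were chosen with earlier results of these data known. All 9 members are named. Of the other alpha-defensins and of each list used, the 3 genes with most UMIs are named. Of the genes most like a member, 3 are named, and 5 outside the family for the sum. Some genes that this rule names are not reported here. Kept cells had at least 1000 and under 8000 UMIs and at least 400 genes, which left from 2942252 to 5095089 UMIs per library. Doublets were not called. Levels have exact Poisson, ratios exact binomial and shares Clopper-Pearson 95% intervals, which cover counting error only. Thinning to 1000 UMIs used seed 11. Clusters were found per library with Seurat 5.3.0 in R 4.3.3 (12 principal components, 30 neighbours, resolution 1.35) on genes other than alpha-defensins. Other steps used Python 3.11.15, NumPy 2.4.6 and SciPy 1.17.1. The rule for calls was tested on simulated counts. Alternatives were other cell limits, scalings, reads in place of UMIs, fold limits, thinning depths and cluster settings. No sequence of the encoded proteins was used here.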

Additional observations from a re-analysis of the deposited data

Results flagged for a closer look

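Cells of 8000 or more UMIs were left out of every comparison above, and they too held members. The members took 3.69% of the UMIs of 82 such cells in ENR, 9.72% of those of 77 in ENR+CD and 0.693% of those of 101 in ENR+CV, all far above the 3 UMIs that a count of 0 allows. In these cells Defa24 made up 66.5%, 54.5% and 62.6% of the members' UMIs, and Defa21 1.01%, 4.26% and 6.74%. Defa3 made up 5.36% in ENR+CD and 2.05% in ENR+CV, beside 4.19% and 0.307% in the kept cells, and the difference was not tested.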

How the results depend on the processing

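The counts of members called kept within 1.5 times of the values given in all 3 comparisons. This held under the other cell limits, scalings, weights, fold and count limits and by reads. The 2 exclusions of ENR+CV cells, added after the values were seen, took cells rich in members out of ENR+CV alone. By that choice they favour calls of lower in ENR+CV, so they are no check of the counts. For the single ratios, 129 of 135 values kept their call, 5 fell short of it and 1 gained it. Those that fell short were Defa24 and Defa26 in ENR+CD against ENR by reads, Defa22 in ENR+CV against ENR in all merged cells and by reads, and Defa25 in ENR+CV against ENR in cells of at least 2000 UMIs. Median-of-ratios scaling moved log2 ratios by -0.38 in ENR+CV against ENR and gave Defa21 a call (-1.16). The percent of Defa24 moved beyond its counting interval with the choice of cells and by reads. In ENR it was 69.8 in all merged cells, 70.2 in cells of at least 2000 UMIs, 71.1 as the mean over cells and 84.5 by reads. In ENR+CD these were 59.3, 59.9, 60.8 and 70.5. In ENR+CV it was 63.2 in cells of at least 2000 UMIs, 69.9 as the mean over cells, 79.2 by reads, 68.0 without the cell richest in Defa21 and 82.9 without the 14 richest cells. By the mean over cells ENR still had the highest percent and ENR+CD the lowest. With the 14 cells left out of ENR+CV, and none of ENR or ENR+CD left out, ENR+CV had the highest. The number of members found per cell rose with depth, to 2.62, 5.64 and 0.828 in ENR, ENR+CD and ENR+CV without thinning, and to 2.50, 5.57 and 0.668 at 2000 UMIs. In the cluster richest in members, Defa24 made up 69.6% in ENR with Paneth and enteroendocrine markers also left out and 69.6% at resolution 0.8, and 59.5% and 60.0% in ENR+CD. No paired analysis was possible because each condition has 1 library. Depth limits Defa5, Defa25 and Defa-rs7 in ENR+CV, which rest on 2, 0 and 5 UMIs.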
